A study of Homo sapiens with 12 samples.

Results

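T24 is an established human bladder cancer cell line. Of the 12 RNA sequencing libraries made from it, 4 are described here. They are the 2 libraries labelled as knockout of the small nuclear RNA U11 and the 2 untreated libraries whose titles carry the same prefix, chosen by those labels and titles alone. The question was which genes differ in level when U11 is targeted. The methods describe Cas9 with a pair of guides against U11 and the choice of monoclonal lines by their knockout efficiency, so a difference under the label can also be one between a clone and the parental cells. The labels call the controls untreated, whereas the methods describe a guide vector control. All 4 libraries came from T24 cells, and nothing in the labels says whether the 2 libraries of a group were separate cultures, so a p-value measures only the spread between these libraries.

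U11 is one of the small nuclear RNAs of the minor spliceosome, the machinery that removes the rare U12-type introns. It pairs with the 5′ splice site of such an intron, U12 pairs with the branch point, and both act as one particle with a set of proteins of their own. U4atac and U6atac take the places that U4 and U6 hold in the major spliceosome. The gene of U11, RNU11, is on the plus strand of chromosome 1 of hg38. Its sequence at chr1:28648600-28648733 is shown because the label of the libraries rests on it, and the capitals mark the 2 stretches that the guides match, from base 12 to 31 and from base 105 to 124, each followed by a PAM (agg and cgg).
RNU11: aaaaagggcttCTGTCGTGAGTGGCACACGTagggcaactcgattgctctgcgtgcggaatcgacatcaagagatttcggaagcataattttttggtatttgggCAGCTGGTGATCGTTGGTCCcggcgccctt

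The level of U11 was not lower under the label. TPM (an abundance corrected for transcript length that sums to the same total in each library) of RNU11 was 21.4 and 23.8 in the controls and 31.6 and 37.4 in the libraries labelled U11 knockout. Both libraries under the label were above both controls, by a ratio of means of 1.53. Comparing these means by a two-sided exact permutation test gave p = 0.333, below which 2 libraries against 2 cannot go. These are therefore called the libraries labelled U11 knockout throughout, and every direction below rests on that label. A second entry of RNU11 was listed at 0 in all 4 libraries. U6atac and U4atac were lower than U11 in each of the 4 libraries and not called. RNU6ATAC was at 7.86 and 9.21 TPM in the controls against 10.2 and 12.6 TPM under the label (adjusted P = 0.191), and RNU4ATAC was at 6.49 and 10.9 TPM and at 10.3 and 9.88 TPM (adjusted P = 0.556). RNU12 was listed as 2 overlapping entries on the same strand that moved in opposite directions. The short one was at 64.8 and 67.1 TPM in the controls but listed at 0 in both libraries under the label, and the long one was at 4.93 and 4.78 TPM in the controls against 28.8 and 28.3 TPM under the label. Reads of overlapping entries can be assigned to either, so no direction is given for U12.

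The proteins of the minor spliceosome showed no difference that passed the test. A gene was called higher or lower where limma on log2(TPM + 1) gave a Benjamini-Hochberg adjusted P under 0.05 and a change of at least 1.5-fold, and "rose" and "fell" are used for called genes alone. Of 14 such proteins tested, 0 were called in either direction, and at an unadjusted P under 0.05, 1 was higher and 1 was lower. At that threshold, with no minimum fold, 20.6% of all genes tested were higher and 9.53% lower, which is the background of each such count below. Their log2 fold changes ran from -0.44 for SNRNP25, a protein of the U11/U12 particle, to 0.43 for SCNM1. SNRNP25 was at 68.7 and 64.4 TPM in the controls against 45.4 and 52.1 TPM under the label (adjusted P = 0.0771). Of 34 SR proteins, hnRNPs and core Sm proteins, which serve splicing in general, 0 were called, while 3 were lower at an unadjusted P under 0.05. Of 22 genes of the Cajal body and the SMN complex, where small nuclear RNAs are assembled with proteins, NOLC1 and GEMIN8 fell. NOLC1 went from 82.7 and 63.9 TPM to 37.96 and 40.16 TPM, and GEMIN8 from 6.45 and 6.85 TPM to 3.77 and 3.92 TPM.

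Genes with a U12-type intron were called higher at nearly the share of all genes. They were defined by letters alone, as genes with an annotated intron of at least 60 bases that begins with ATATCCTT or GTATCCTT, and 449 of them were tested. Of these, 21 (4.68%) were called higher and 3 (0.668%) lower, where 4.78% and 2.08% of all 14356 genes tested were called higher and lower. Their median log2 fold change was 0.11, the same as that of all genes to 2 decimals. The largest called rises were those of PPP2R2C, a regulatory subunit of protein phosphatase 2A, of PLCB1, a phospholipase C, and of SCN9A, a voltage-gated sodium channel. PLCB1 was at 0.669 and 0.814 TPM in the controls against 4.85 and 3.21 TPM under the label. SCN9A was at 0.587 and 1.09 TPM in the controls against 3.98 and 3.54 TPM under the label, and PPP2R2C was at 0.0580 and 0.0501 TPM against 4.00 and 3.43 TPM. The 3 that fell were RAPGEF3, an exchange factor activated by cyclic AMP, PRIM1, the catalytic subunit of DNA primase, and EXD3. PRIM1 went from 26.1 and 26.9 TPM to 15.03 and 16.56 TPM, and RAPGEF3 from 2.41 and 1.62 TPM to 0.411 and 0.417 TPM. EXD3 was at 7.36 and 7.28 TPM in the controls against 4.49 and 4.30 TPM under the label. The 5′ splice sites of 4 of these 6 genes are printed to show the letters that defined the set, with the last 10 bases of the exon and the first 20 of the intron, and the motif in capitals. They lie at chr20:8727384-8727413, chr2:166306936-166306965, chr12:47748054-47748083 and chr12:56742967-56742996 of hg38, the first on the plus strand and the others on the minus strand.
PLCB1: aatttgtagaGTATCCTTgatttgacgaat
SCN9A: tagtacactcATATCCTTttaaaaatgatt
RAPGEF3: ttctgcaccaATATCCTTccagctccaggg
PRIM1: gttcctgaaaATATCCTTtcccgtgatcat

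Across all genes, 686 were called higher and 298 lower in the libraries labelled U11 knockout. All genes had a median log2 fold change of 0.11, and the surplus of rises depended on the scaling. After median ratio scaling, which brought that median to 0.003, 580 genes (4.04%) were called higher and 512 (3.57%) lower. The share of rises among the calls was 69.7% with the deposited TPM and 53.1% after the scaling. In all, 535 genes were called higher and 295 lower with both scalings, and 0 genes were called in opposite directions. The counts depended on single libraries. Without the first control they were 428 higher and 224 lower, and without the second control 1131 and 331. Without the first library labelled U11 knockout they were 0 and 2, and without the second 0 and 0, where limma at an unadjusted P under 0.05 with the same fold gave 914 and 590 and then 1574 and 435. All or nearly all named entries that were called were no longer past the threshold without the first or the second of these libraries. Of 130 called genes that are named by rule, 119 were called in the same direction after median ratio scaling.

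**Figure D1:**
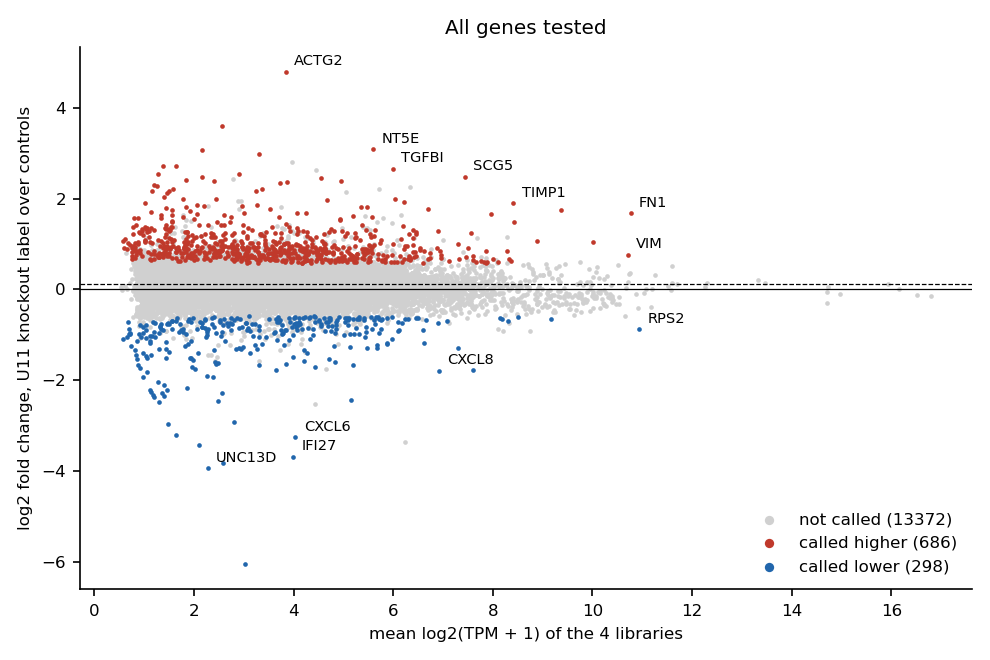
The log2 fold change of each of the 14356 genes tested (libraries labelled U11 knockout over controls, vertical axis) is plotted against its mean log2(TPM + 1) in the 4 libraries. Red points are the 686 genes called higher, blue points the 298 called lower and grey points the 13372 not called. The dashed line marks the median of all genes, 0.11, and the lowest point is the short entry of RNU12.

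The aligned bases behind the values, read from the ratio of coverage to FPKM, were 13.7 to 14.3 gigabases in the controls and 14.9 to 15.2 under the label. The 10 highest entries, among them RN7SL1, RN7SK and RMRP, held 45.5% to 49.6% of the TPM in the 4 libraries. The cells matched their labelled origin in part. KRT7, KRT8 and KRT18, keratins of simple and transitional epithelium, were between 270 and 1308 TPM in every library, while the uroplakins, KRT5, KRT20 and TP63 were under 1 TPM in all 4. Of 16 markers of bladder epithelium 7 were tested, and FOXA1 and KRT19 fell. The summed level of these markers was 2097 to 2227 TPM in the controls and 1852 to 2130 TPM under the label. Of 13 markers of blood and immune cells and 10 of fibroblasts and smooth muscle, 12 and 7 were under 1 TPM in all 4 libraries, with summed levels of at most 5.70 TPM. Of 6 endothelial markers, CDH5 alone was above 1 TPM.

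The largest rise on the log2(TPM + 1) scale was that of ACTG2, the smooth muscle isoform of gamma actin, from 1.43 and 2.07 TPM in the controls to 73.5 and 76.4 TPM under the label. Most other genes of its list had positive but far smaller log2 fold changes. Of 22 tested genes of smooth muscle and the actin cytoskeleton, 4 rose and 0 fell, and at an unadjusted P under 0.05, 15 were higher and 0 lower. Their median log2 fold change was 0.46 beside 0.11 for all genes, or 0.34 beside 0.003 after median ratio scaling. MYL9, the regulatory light chain of myosin, rose from 56.1 and 55.4 TPM to 133 and 137 TPM. MYLK, the kinase that acts on this light chain, rose from 0.462 and 0.393 TPM to 1.54 and 1.41 TPM. TPM2, a tropomyosin, rose from 175 and 173 TPM to 261 and 273 TPM (adjusted P = 0.0225) and was not called after median ratio scaling. ACTA2, the alpha actin of smooth muscle, was at 2.41 and 1.89 TPM in the controls against 1.68 and 1.32 TPM under the label, and CNN1, MYH11, LMOD1 and DES were under 1 TPM in all 4 libraries. Since the actin genes share long stretches of near-identical sequence, the split of reads between them is uncertain.

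The promoter of ACTG2 is known for CArG boxes, the sites of serum response factor. The 250 bases before its start in RefSeq, at chr2:73892758-73893007 on the plus strand of GRCh38.p14, are printed with the 2 matches to the CArG box in capitals, 110 and 73 bases before the start. Over both strands, 1.14% of 27305 promoters of this length hold a match. Of the smooth muscle and actin genes with a promoter in the table, 2 of 3 that rose (ACTG2 and MYLK) and 4 of 17 that were not called (CNN2, TPM4, FLNA and SRF) held one. Among all 81 genes tested whose promoter holds one, ACTG2 and MYLK included, 9.88% rose and 2.47% fell. Of the 9168 tested genes with a promoter in the table, 5.43% rose and 2.01% fell. A match is a match of letters and shows no binding.
ACTG2: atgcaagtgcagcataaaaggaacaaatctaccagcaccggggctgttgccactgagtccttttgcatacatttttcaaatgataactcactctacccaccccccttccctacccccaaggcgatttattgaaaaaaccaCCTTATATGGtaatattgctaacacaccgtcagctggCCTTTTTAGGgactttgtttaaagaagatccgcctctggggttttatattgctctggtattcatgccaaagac

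Matricellular and fibril proteins, secreted proteins that bind matrix and cells, had the largest share of rises among the 32 lists, which are described without a test. Of 18 tested, 9 rose and 0 fell (8 and 0 after median ratio scaling), and the list's median on the log2 scale was 0.75. The background of calls was 4.78% of all genes higher and 2.08% lower. FN1, fibronectin, went from 932 and 1014 TPM to 3572 and 2727 TPM (log2 fold change 1.68, standard error 0.14, adjusted P = 0.0124). TGFBI, a secreted matrix protein induced by TGF-beta (ENSG00000120708, chr5:136028895-136063818), went from 24.9 and 23.5 TPM to 157 and 160 TPM (log2 fold change 2.66, standard error 0.09, adjusted P = 0.00276). In both genes the lowest library under the label was above the highest control. THBS1, thrombospondin 1, rose from 203 and 203 TPM to 638 and 509 TPM, and CTGF, a matricellular growth factor, from 137 and 144 TPM to 475 and 415 TPM. TNC, SPOCK1, FBN1, NID1 and CYR61 rose as well, with log2 fold changes from 0.71 to 1.33. LOXL2, EFEMP1 and AGRN, all above 40 TPM in every library, were not called.

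Among the proteases and inhibitors that act on matrix, genes moved both ways. Of 15 tested, 4 rose and 3 fell with either scaling. TIMP1, an inhibitor of matrix metalloproteinases (ENSG00000102265, chrX:47582313-47586789), rose from 174 and 175 TPM to 647 and 669 TPM (log2 fold change 1.91, standard error 0.07, adjusted P = 0.00276). TIMP3, its relative bound to the matrix, was at 4.04 and 4.14 TPM in the controls against 0.0106 and 0.0132 TPM under the label. SERPINE2, an inhibitor of serine proteases, rose from 20.1 and 14.4 TPM to 53.2 and 48.5 TPM. Its target PLAU, urokinase, fell from 92.4 and 85.7 TPM to 39.6 and 36.1 TPM, whereas its receptor PLAUR rose from 69.3 and 66.0 TPM to 125 and 125 TPM. SERPINB2 fell from 26.2 and 30.8 TPM to 12.3 and 13.2 TPM. MMP1, MMP2, MMP3, MMP7, MMP9, MMP10 and MMP13 did not reach the minimum of 1 TPM in 2 libraries and were not tested.

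**Figure D2:**
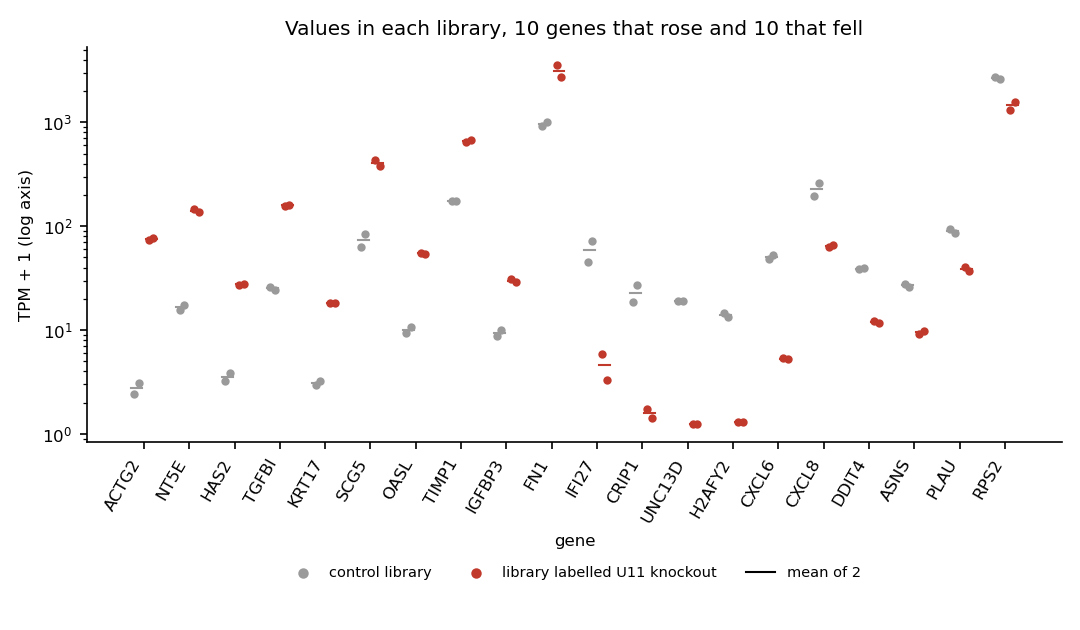
TPM + 1 (log axis) in each library is plotted for 10 genes that rose and 10 that fell, with control libraries in grey, libraries labelled U11 knockout in red and a short line at the mean of each pair. The pairs do not overlap for any of the 20 genes, and FN1 (2727 and 3572 TPM) and IFI27 (2.33 and 4.88 TPM) show the widest spread under the label.

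YAP and TEAD act together in the nucleus on genes that respond to spreading and tension of the cell. Of 24 of their target genes, 8 rose and 0 fell, and 4 and 0 were called after median ratio scaling. At an unadjusted P under 0.05, 12 were higher and 3 lower. NT5E, known as CD73, which makes adenosine from AMP outside the cell (ENSG00000135318, chr6:85449584-85495791), rose from 14.6 and 16.6 TPM to 145 and 135 TPM. IGFBP3 rose from 7.86 and 8.94 TPM to 29.9 and 27.9 TPM, and GADD45A from 21.0 and 23.6 TPM to 38.9 and 40.6 TPM. ANKRD1, CRIM1 and F3 rose by less than 0.7 on the log2 scale. YAP1, WWTR1 and TEAD4 were not called, with log2 fold changes from -0.22 to 0.05. In the TGF-beta and BMP list, 4 of 28 genes rose, among them TGFBI, TGFB2 and SMAD7, and 3 fell, and the 3 were BMP4 and 2 antagonists of that family, FST and NOG. TGFB2, a ligand, rose from 15.1 and 17.2 TPM to 36.5 and 31.2 TPM, and SMAD7, an inhibitor inside the cell, from 8.13 and 8.39 TPM to 15.2 and 14.4 TPM. BMP4 fell from 2.13 and 2.97 TPM to 0.209 and 0.271 TPM, FST from 70.6 and 74.0 TPM to 32.9 and 40.6 TPM, and NOG from 11.5 and 11.1 TPM to 6.22 and 6.18 TPM.

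Markers of epithelial and mesenchymal state were mixed. Of 15 junction genes tested, 4 rose and 1 fell. VIM, vimentin, rose from 1304 and 1259 TPM to 2254 and 2096 TPM, and ZEB2, a repressor of E-cadherin, from 6.33 and 8.49 TPM to 17.2 and 15.6 TPM. ZEB1 rose from 5.77 and 5.96 TPM to 9.38 and 9.22 TPM (adjusted P = 0.0484) and was not called after median ratio scaling. DSG2, a desmosomal cadherin, also rose, from 32.6 and 37.7 TPM to 62.8 and 54.0 TPM. CLDN1, a tight junction protein, fell from 54.5 and 55.9 TPM to 28.1 and 26.7 TPM. CDH1, EPCAM, CLDN4, CLDN7 and ESRP1 were not tested, so the epithelial side rested on few genes. Of 10 keratins tested, KRT17 and KRT34 rose, and KRT81, KRT80 and KRT19 fell. KRT17 went from 1.93 and 2.23 TPM to 17.0 and 17.0 TPM, and KRT34 from 1.40 and 1.29 TPM to 6.63 and 6.14 TPM. KRT81 went from 8.25 and 8.28 TPM to 1.47 and 1.48 TPM, KRT80 from 17.7 and 17.6 TPM to 8.29 and 6.94 TPM, and KRT19 from 158 and 151 TPM to 92.8 and 90.3 TPM.

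**Figure D3:**
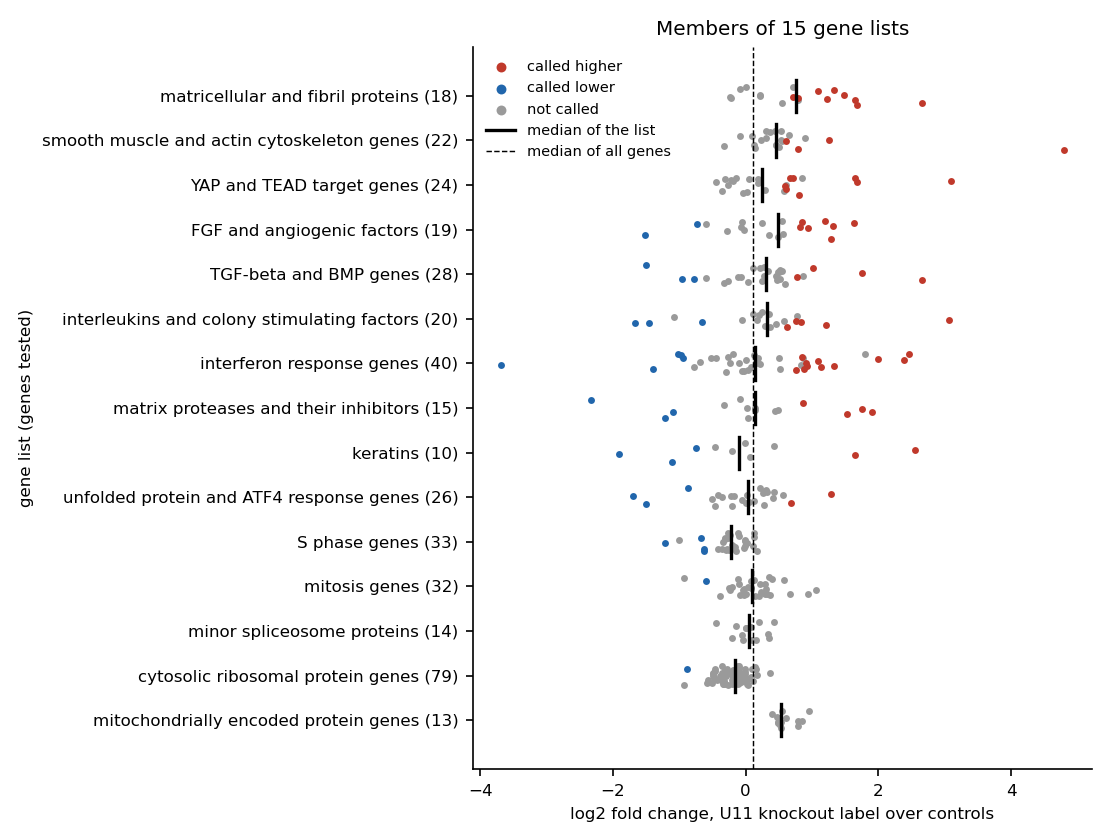
Each point is a tested gene of 1 of 15 lists, placed by its log2 fold change (libraries labelled U11 knockout over controls) and coloured red where called higher, blue where called lower and grey where not called. Short black lines are list medians and the dashed line is the median of all genes, 0.11. Of these 15, the matricellular list has the highest median, 0.75, and the S phase list the lowest, -0.23.

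HAS2, a synthase of hyaluronan, rose from 2.20 and 2.87 TPM to 26.5 and 26.8 TPM, and its entry overlaps HAS2-AS1 on the other strand. In the list of hyaluronan, adenosine and prostaglandin genes, 3 of 16 rose (NT5E, HAS2 and PTGS2) and 1 fell. PTGS2, the inducible cyclooxygenase, rose from 3.08 and 3.69 TPM to 6.33 and 6.18 TPM, while PTGS1, the constitutive one, fell from 1.83 and 1.68 TPM to 0.363 and 0.313 TPM. Of 19 FGF and angiogenic factors, 7 rose and 2 fell, with a median log2 fold change of 0.49. FGF2 went from 65.6 and 88.5 TPM to 192 and 181 TPM, and VEGFC, a ligand for lymphatic vessel growth, from 26.2 and 27.6 TPM to 73.7 and 63.1 TPM. ANGPTL4 and ANGPT1 rose from under 1 TPM in both controls, to 4.04 and 4.32 TPM and to 2.09 and 1.90 TPM. FGF1, NRP1 and EFNB2 rose by 0.82 to 0.95 on the log2 scale. FGFBP1, a carrier of FGF2, fell from 3.69 and 3.55 TPM to 0.736 and 0.488 TPM, and PDGFB from 19.7 and 21.0 TPM to 12.70 and 11.009 TPM. VEGFA was not called. Of 11 genes of the EGF receptor family and its ligands, TGFA and ERBB2 rose, and HBEGF and LRIG1 fell. HBEGF, a membrane-bound ligand, went from 42.3 and 47.2 TPM to 21.9 and 21.4 TPM, and LRIG1, an inhibitor of the receptors, from 2.14 and 2.61 TPM to 0.677 and 0.554 TPM. TGFA went from 12.7 and 13.4 TPM to 26.6 and 23.5 TPM, and ERBB2, from 26.9 and 31.3 TPM to 44.5 and 44.5 TPM, was not called after median ratio scaling.

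The genes of the interferon response split into a part that rose and a part that fell. These genes are switched on by type I interferon through STAT proteins and IRF9, and most of them act against viral RNA. Of 40 tested, 11 rose and 5 fell, or 12 and 6 after median ratio scaling, and their median log2 fold change was 0.15. OASL, a relative of the 2-5A synthetases, rose from 8.27 and 9.69 TPM to 54.65 and 53.03 TPM. DDX60, a helicase that senses RNA, rose from 10.4 and 15.3 TPM to 73.8 and 66.2 TPM, and IFI44 from 25.7 and 39.1 TPM to 135 and 123 TPM. IFIT2, which binds viral RNA, rose from 14.1 and 18.2 TPM to 42.4 and 41.2 TPM. DDX58, HERC5, HERC6, IFIT1, IFIT3, ISG15 and ISG20 rose as well. IFI27, by contrast, fell from 44.5 and 70.3 TPM to 4.88 and 2.33 TPM (log2 fold change -3.69, standard error 0.35, adjusted P = 0.0156). MX1, a GTPase, fell from 11.4 and 15.4 TPM to 4.48 and 4.31 TPM, IRF7 from 21.3 and 21.8 TPM to 10.28 and 9.998 TPM, and IFITM1 from 45.2 and 51.5 TPM to 23.9 and 24.2 TPM. TRIM22 fell too (log2 fold change -0.94). IRF9 was not called, at 11.9 and 8.87 TPM in the controls against 7.11 and 10.4 TPM under the label. The interferon-stimulated response motif (GAAA, any 2 bases and GAAA again, on either strand) was in the 250 bases before the start of 7 of 9 risen genes, 2 of 3 fallen genes and 10 of 19 genes not called that had a promoter in the table, and in 3.07% of all promoters. Among all 213 genes tested whose promoter holds it, 7.04% rose and 1.88% fell. Of the 9168 tested genes with a promoter in the table, 5.43% rose and 2.01% fell. Of 17 genes of HLA class I and antigen processing, B2M rose and TAP2 fell, and the list's median was 0.06, or -0.06 after median ratio scaling. B2M, the light chain of class I molecules, went from 320 and 331 TPM to 811 and 573 TPM, and TAP2, a peptide transporter, from 14.79 and 14.96 TPM to 9.41 and 9.29 TPM.

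The 6 CXC chemokine genes tested between STATH and EREG, on the long arm of chromosome 4, fell together. They lie close together and encode secreted proteins that draw neutrophils. CXC chemokine genes elsewhere on the chromosome are not described here. CXCL8 (ENSG00000169429, chr4:73740506-73743716), interleukin 8, was at 193 and 258 TPM in the controls against 62.3 and 64.9 TPM under the label (log2 fold change -1.79, standard error 0.16, adjusted P = 0.0127). CXCL6 (chr4:73836497-73849064) was at 47.6 and 52.2 TPM and at 4.36 and 4.22 TPM (log2 fold change -3.27, standard error 0.11, adjusted P = 0.00276). The span around them was chosen after its values were seen. CXCL1 was at 353 and 367 TPM in the controls against 102 and 108 TPM under the label, CXCL2 at 11.3 and 12.7 TPM and at 5.14 and 5.61 TPM, CXCL3 at 5.45 and 6.06 TPM and at 2.09 and 2.46 TPM, and CXCL5 at 1.14 and 1.38 TPM and at 0.107 and 0.0822 TPM. All 6 were called lower with both scalings, and the libraries under the label were below both controls for each. CXCL1, CXCL2 and CXCL3 are close copies, so the split of reads between them is uncertain. Of the neighbours, MTHFD2L, which starts 0.374 Mb from CXCL8, was at 7.01 and 7.60 TPM in the controls against 8.41 and 7.74 TPM under the label. EREG, an EGF receptor ligand 0.625 Mb away, was at 23.1 and 27.3 TPM and at 18.8 and 17.4 TPM, and neither was called. On the other side, at -3.74 to -3.22 Mb from CXCL8, the secretory genes STATH, HTN3, HTN1, MUC7 and AMTN rose and SMR3B fell. HTN3, which encodes a salivary histatin, went from 0.448 and 0.997 TPM to 21.0 and 18.3 TPM, and AMTN, a protein of enamel, from 4.95 and 6.06 TPM to 33.71 and 31.04 TPM. SMR3B went from 4.44 and 4.60 TPM to 0.536 and 0.0591 TPM. HTN1 and HTN3 are close in sequence too. In the whole span of 24 tested entries from STATH to EREG, 5 rose, 7 fell and 12 were not called.

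The promoters of these chemokines share a kappa B motif, the letters at which NF-kappa B is known to act. GGAATTTCC on either strand was found in the 250 bases before the start of all 6 genes and in 0.428% of 27305 promoters. Among all genes tested whose promoter holds it, 39 in number, 8 fell (20.5%) and 0 rose, where 2.01% of 9168 tested genes with a promoter in the table fell and 5.43% rose. The 8 were the 6 chemokines, whose fall prompted the search, with ICAM1 and NFKBIA. Without the 6, 2 of 33 fell (6.06%) and 0 rose, so the share rests mostly on the chemokines themselves. The promoters of the chemokines descend from shared copies, so these are not 6 separate occurrences. Those of CXCL8, CXCL6 and CXCL1 are printed to show the motif, in capitals, 91, 89 and 78 bases before the start, at chr4:73740319-73740568, chr4:73836428-73836677 and chr4:73869143-73869392 on the plus strand of GRCh38.p14, from RefSeq.
CXCL8: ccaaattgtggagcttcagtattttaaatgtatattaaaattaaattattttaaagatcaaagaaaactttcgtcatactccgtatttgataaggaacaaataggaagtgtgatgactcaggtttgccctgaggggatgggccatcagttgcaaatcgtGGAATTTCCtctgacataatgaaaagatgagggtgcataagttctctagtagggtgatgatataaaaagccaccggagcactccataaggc
CXCL6: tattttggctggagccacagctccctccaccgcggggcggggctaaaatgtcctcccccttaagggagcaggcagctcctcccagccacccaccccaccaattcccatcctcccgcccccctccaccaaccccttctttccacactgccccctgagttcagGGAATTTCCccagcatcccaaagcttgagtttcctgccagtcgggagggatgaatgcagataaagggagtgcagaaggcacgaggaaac
CXCL1: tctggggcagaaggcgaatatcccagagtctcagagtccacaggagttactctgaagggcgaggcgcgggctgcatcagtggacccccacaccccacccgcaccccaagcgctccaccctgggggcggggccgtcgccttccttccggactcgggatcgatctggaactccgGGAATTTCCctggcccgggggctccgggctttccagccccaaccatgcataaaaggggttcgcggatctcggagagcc

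Interleukins and colony stimulating factors went both ways. Of 20 genes tested, 5 rose and 3 fell. IL33, an alarmin held in the nucleus, went from 0.290 and 0.849 TPM to 18.4 and 7.62 TPM, and its libraries under the label differed widely. IL7R rose from 54.5 and 58.8 TPM to 140 and 126 TPM, IL11 from 47.6 and 47.0 TPM to 79.7 and 81.4 TPM, and IL1R1 from 0.318 and 0.395 TPM to 1.65 and 1.19 TPM. OSMR rose with the deposited TPM alone. The ligands of the IL1 receptor fell, IL1A from 15.2 and 18.4 TPM to 4.91 and 4.28 TPM and IL1B from 65.2 and 70.3 TPM to 43.3 and 41.8 TPM. CSF2, or GM-CSF, fell from 2.58 and 2.65 TPM to 0.533 and 0.138 TPM. Of 23 immediate early and ERK feedback genes, JUNB, SPRED2, EGR1 and ATF3 rose and 0 fell, with 10 higher and 1 lower at an unadjusted P under 0.05. JUNB, a subunit of AP-1, went from 16.1 and 15.4 TPM to 39.9 and 39.1 TPM, and SPRED2, which restrains ERK signalling, from 4.67 and 4.60 TPM to 10.6 and 8.79 TPM. EGR1 went from 0.795 and 0.991 TPM to 2.32 and 2.75 TPM, and ATF3, from 1.39 and 1.24 TPM to 2.59 and 2.86 TPM, was not called after median ratio scaling.

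Genes of DNA replication were lower as far as they were called. Of 33 S phase genes, 0 rose and 4 fell, and at an unadjusted P under 0.05, 0 were higher and 14 lower. Their median log2 fold change was -0.23 beside 0.11 for all genes, and -0.35 beside 0.003 after median ratio scaling. GINS2, a part of the replicative helicase, fell from 32.8 and 32.0 TPM to 20.3 and 19.7 TPM, CDT1, which loads that helicase, from 24.2 and 23.1 TPM to 15.7 and 14.2 TPM, and FEN1, a flap nuclease, from 114 and 109 TPM to 74.5 and 69.6 TPM. FEN1 overlaps FADS2 on the same strand in the files. MCM2 to MCM7 had log2 fold changes from -0.41 to -0.19 and were not called. Of 32 mitosis genes, 0 rose and PLK1 fell, from 62.3 and 63.6 TPM to 41.8 and 40.4 TPM, while at an unadjusted P under 0.05, 10 were higher and 4 lower. In bulk samples, fewer cells in a phase and less RNA per cell cannot be told apart. Of 25 p53 target genes, 5 rose (3 of them also after median ratio scaling), among them GADD45A, TP53INP1, TP53I3 and PHLDA3, and GDF15 fell, from 8.84 and 7.80 TPM to 2.27 and 1.91 TPM. CDKN1A, the p21 inhibitor of the cell cycle, was not called, at 10.7 and 10.5 TPM against 11.2 and 12.1 TPM. TP53INP1 went from 1.36 and 1.57 TPM to 3.17 and 2.78 TPM, and TP53I3, from 23.4 and 23.2 TPM to 39.0 and 36.3 TPM, was not called after median ratio scaling. Of 16 BCL2 family genes, PMAIP1, or NOXA, rose from 46.4 and 68.2 TPM to 125 and 123 TPM, and MCL1, from 108 and 115 TPM to 176 and 170 TPM, rose with the deposited TPM alone.

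Metabolic and stress genes were called in both directions. Of 26 genes of the unfolded protein and ATF4 response, SLC7A11 and ATF3 rose and 3 fell. SLC7A11, the cystine transporter, went from 7.85 and 9.89 TPM to 24.3 and 21.6 TPM. DDIT4, an inhibitor of mTORC1, went from 37.7 and 38.5 TPM to 11.3 and 10.7 TPM, ASNS, asparagine synthetase, from 27.1 and 24.7 TPM to 8.21 and 8.75 TPM, and PHGDH, the entry step of serine synthesis, from 55.2 and 46.7 TPM to 26.8 and 28.1 TPM. Of 21 NRF2 targets, SLC7A11 and HMOX1 rose, and HMOX1, from 18.3 and 18.6 TPM to 27.90 and 28.97 TPM, was not called after median ratio scaling. Of 24 genes of cholesterol synthesis and uptake, DHCR7 and TM7SF2, both reductases of the pathway, fell, from 31.9 and 32.4 TPM to 19.4 and 21.6 TPM and from 3.79 and 3.38 TPM to 1.66 and 1.26 TPM. Of 26 genes of glycolysis and the hypoxia response, SLC2A3, a glucose transporter, rose from 3.31 and 3.58 TPM to 8.42 and 6.82 TPM, and NDRG1 from 4.57 and 4.38 TPM to 9.28 and 8.23 TPM. Of 17 heat shock genes, 0 were called, with 2 higher and 4 lower at an unadjusted P under 0.05. Of 7 metallothioneins, MT1F fell from 2.46 and 2.67 TPM to 1.18 and 1.05 TPM. Of 15 S100 and related calcium-binding genes and LIM proteins, S100A6, S100A2 and S100A11 rose, and CRIP1 and CRIP2 fell. S100A6 went from 730 and 717 TPM to 1454 and 1510 TPM. S100A2 and S100A11, which rose by 0.65 and 0.61 on the log2 scale, were not called after median ratio scaling.

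Ribosomal protein genes and mitochondrial transcripts moved apart in their medians. Of 79 cytosolic ribosomal protein genes, 0 rose and RPS2 fell, from 2712 and 2641 TPM to 1324 and 1587 TPM, and 32 were lower and 1 higher at an unadjusted P under 0.05. The median of the list was -0.16, or -0.29 after median ratio scaling, when 7 were called lower. EEF1G, an elongation factor subunit, fell from 699 and 738 TPM to 435 and 482 TPM. Both have many processed copies in the genome that can share their reads. All 13 protein genes encoded by mitochondrial DNA had log2 fold changes above 0, from 0.40 to 0.96, but 0 were called, and 5 were higher at an unadjusted P under 0.05. MT-ND4 was at 33.5 and 50.6 TPM in the controls against 117 and 55.5 TPM under the label, so that the first library labelled U11 knockout carried most of its difference. Of 52 nuclear genes of oxidative phosphorylation, COX7A2 rose, from 63.0 and 62.3 TPM to 103.8 and 100.7 TPM, and was not called after median ratio scaling. RPL22L1, a paralogue of a ribosomal protein, varied between the controls more than between the groups, at 13.1 and 36.7 TPM in the controls and 12.8 and 18.7 TPM under the label (log2 fold change -0.48, standard error 0.49, adjusted P = 0.558).

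Among the 5 most abundant genes that fell were 3 replication-dependent histone genes. The summed TPM of all genes with a symbol of HIST and a digit was 34279 and 31589 in the controls and 29172 and 27662 under the label. Histone genes named otherwise, such as H2AFY2, are not in that sum. HIST2H3D went from 483 and 420 TPM to 297 and 288 TPM, HIST4H4 from 417 and 389 TPM to 246 and 246 TPM, and HIST1H3I from 382 and 344 TPM to 233 and 227 TPM. HIST1H2BE went from 69.7 and 95.7 TPM to 15.9 and 12.8 TPM. The 3 abundant ones were below 2 TPM in the other 8 libraries of the series, and histone genes are close copies of each other whose reads can be shared.

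Some genes were near absence in one group. With under 1 TPM in both libraries of one group and a mean of at least 5 TPM in the other, 7 called genes were lower and 7 higher under the label. UNC13D, which serves the release of cytotoxic granules (ENSG00000092929, chr17:75827225-75844717), was at 18.1 and 18.0 TPM in the controls against 0.242 and 0.238 TPM under the label. H2AFY2, a macroH2A histone variant, was at 13.6 and 12.5 TPM and at 0.311 and 0.298 TPM, and CRIP1, a LIM protein, at 17.7 and 26.3 TPM and at 0.737 and 0.436 TPM. NEURL1, a ubiquitin ligase, was at 8.38 and 8.52 TPM in the controls against 0.0137 and 0.0295 TPM under the label, and FLJ26245 was at 6.26 and 7.34 TPM and listed at 0. In the other 8 libraries UNC13D was at 24.5 to 42.9 TPM and CRIP1 at 29.8 to 55.9 TPM. There, NEURL1 was at 0.0708 to 2.07 TPM, FLJ26245 at 0 to 5.41 TPM and H2AFY2 at 0.360 to 19.4 TPM. For NEURL1 and FLJ26245 the controls were therefore above all of those libraries. The last of the 7, beside the short entry of RNU12, was RP11-762I7.5, which overlaps DNAJC14 and SARNP on its own strand. In the other direction, MAGEA11, a cancer and testis antigen, was at 0.131 and 0.283 TPM in the controls against 6.91 and 7.05 TPM under the label, and it was listed at 0 in all 8 other libraries. HTN3, IL33, TMBIM4, ABCC9, ECM1 and CTD-2066L21.2 made up the 7, of which ABCC9, ECM1 and CTD-2066L21.2 are named after their values were seen. An entry of TMBIM4 rose from 0.00 and 0.0263 TPM to 7.02 and 4.46 TPM and overlaps a second entry of that name.

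Other large differences were those of SCG5, KRT17 and TNS1 among the rises and FABP4, ADGRG1 and ARMCX5 among the falls. SCG5, a neuroendocrine secretory protein (ENSG00000166922, chr15:32641676-32697098), went from 62.4 and 83.3 TPM to 433 and 383 TPM. The other 8 libraries were at 19.1 to 67.4 TPM, so that the second control was above their range as well. TNS1, tensin 1, went from 1.498 and 1.16 TPM to 13.8 and 9.04 TPM. FABP4, a fatty acid binding protein, went from 10.6 and 13.7 TPM to 1.51 and 1.26 TPM, ADGRG1, an adhesion receptor, from 12.3 and 11.8 TPM to 1.878 and 1.505 TPM, and ARMCX5 from 8.03 and 10.7 TPM to 1.69 and 1.68 TPM. CDH5, the cadherin of endothelial cells, was at 4.85 and 4.75 TPM in the controls against 0.0316 and 0.0293 TPM under the label, and the other 5 endothelial markers were under 1 TPM in all 4 libraries. RP11-196G11.1 (0.00 and 1.41 TPM against 7.85 and 6.599 TPM) and C15orf38-AP3S2 (16.8 and 19.4 TPM against 1.23 and 1.86 TPM) overlap VKORC1 and AP3S2 on their own strand, so their reads are uncertain. The same holds for PRIM1 and IFITM1, whose entries overlap NACA and IFITM2 on their own strand. RPS2 overlaps SNORA64 and AC005363.9 on its own strand. TM7SF2, THBS1, FGF2, MCL1, ZEB1, EEF1G and ARMCX5 overlap other entries in this way too. H2AFY2 overlaps AIFM2 on the other strand. Of the 130 called named genes, 48 had a range over the other 8 libraries that was larger, on the log2(TPM + 1) scale, than their difference here. TGFBI, KRT17, IFI27, MX1 and BMP4 were among them. Those libraries differ from these 4 in their RNA classes, so they serve as values alone. Genes with a symbol of HIST and a digit were at 103 to 180 TPM in sum there, against 27662 to 34279 TPM here.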

How the data were processed

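RNA sequencing of T24 cells was described in 12 libraries, and 4 were analysed here. The authors aligned reads to hg38 with Hisat2 and ran Stringtie, and they deposited for each of 60504 entries a coverage, an FPKM and a TPM. FPKM values deposited by the authors are scaled by length and depth, and coverage deposited by the authors is the mean number of aligned reads per base. The methods describe depletion of ribosomal RNA and the labels polyA RNA. No counts were used here, so count tests, including the study's DESeq2, were not run. TPM includes the counting error of the reads but does not give its size, so that error was not modelled.

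Genes with at least 1 TPM in 2 of the 4 libraries were tested with limma 3.58.1 (R 4.3.3, trend) on log2(TPM + 1), which understates the change of low genes. Calls took a Benjamini-Hochberg adjusted P under 0.05 and a change of at least 1.5-fold. The single level of U11 was compared by an exact permutation test. Where a symbol had several entries, the one with the highest mean was used, except for small nuclear RNAs. Members, 32 gene lists and 4 marker lists were chosen with earlier results of these data known, so lists are described without a test.

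Named genes were the 15 largest rises and falls called with both scalings (groups not overlapping, mean of at least 5 TPM in the higher group), the 5 most abundant called genes of each direction, up to 4 called genes of each direction per list, lists of up to 4 genes in full, RNU11, RNU12, TIMP1, FN1, RPL22L1 and CXCL8, and the 3 largest called rises and falls among genes with a U12-type intron. Other names are members of a list or region whose count is given. Gene identifiers matched GENCODE release 44 for 56558 entries, and 402166 introns were scanned. Promoters are those of RefSeq (GRCh38.p14), matched by symbol. Coordinates are those of the deposited files unless a sequence is printed. Alternatives were other scalings, FPKM, another pseudocount, other filters, no trend, all 12 libraries, all 4 controls, a replicate block, unadjusted P and each library left out. The fit was tested on simulated data. Python 3.11.15 with pandas 2.3.3, numpy 2.4.6, scipy 1.17.1 and matplotlib 3.10.9 was used. Some results of these tables are not reported here.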

Additional observations from a re-analysis of the deposited data

How the results depend on the processing

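With 2 libraries a group, the number of calls moved more than the direction of single genes. Compared with 686 higher and 298 lower, the counts were 17 and 9 without a filter on low values (42021 entries tested), 14 and 8 with all 4 untreated libraries as controls, and 1236 and 452 at an unadjusted P under 0.05. Genes called lower numbered 512 with median ratio scaling, 506 with quantile normalization, 463 with protein-coding genes alone and 450 with FPKM. Leaving out 1 library gave 0 to 1131 higher and 0 to 331 lower, where a lone library is assumed to vary like the other group. The cause was not tested. With replicate number as a block the counts were 89 and 58, and with the block and median ratio scaling 296 and 240. The numbers are shared names alone, since deviations of same-numbered libraries correlated at 0.02 across genes. The ratio of U11 was 1.41 with median ratio scaling and 1.43 with FPKM. With 1 library left out it was 1.40 to 1.66, and it could not pass below 1, since both libraries under the label were above both controls. With all 4 untreated libraries as controls it was 3.01, but the added ones differ in their RNA classes.

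Of 134 named entries tested, 123 kept their direction and side of the threshold with median ratio scaling, 123 with FPKM and 130 with a pseudocount of 0.1. RNU11, RNU6ATAC, RNU4ATAC and RPL22L1 are among the 134 but were not called, so they had no call to lose. Of the 130 called, 119 kept their call with median ratio scaling. All or nearly all of them lost it when either library labelled U11 knockout was left out. With all 4 untreated libraries as controls, log2 fold changes turned for GADD45A (-0.25), DSG2 (-0.042), ATF3 (-0.065), S100A2 (-0.31), TPM2 (-0.11), S100A11 (-0.21), ERBB2 (-0.052), HIST2H3D (3.66), HIST1H3I (3.49), HIST4H4 (3.28), SERPINB2 (0.52) and HIST1H2BE (0.55). The other 2 untreated libraries hold far less RNA of the histone genes named with HIST.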

Other observations

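Calls were not spread evenly over the chromosomes, a pattern looked at after the values were seen. On chromosome 6, 100 of 744 genes tested (13.4%) were called higher and 4 (0.538%) lower, beside 4.78% and 2.08% of all genes. On chromosome 16, 6 of 646 (0.929%) were higher and 36 (5.57%) lower, and on chromosome 11, 12 of 780 (1.54%) and 35 (4.49%). After median ratio scaling the median log2 fold change was 0.19 on chromosome 6, -0.28 on chromosome 16 and -0.23 on chromosome 11. In windows of 10 Mb with at least 20 genes tested, the highest median was that of chromosome 6 from 120 to 130 Mb, at 0.68 after that scaling, with all 20 genes above 0. Chromosome 6 from 80 to 90 Mb, the window of NT5E, had a median of 0.54 with all 35 genes above 0. The lowest was that of chromosome 8 from 140 to 150 Mb, at -0.48, with 70 of 75 genes below 0, followed by chromosome 9 from 130 to 140 Mb at -0.38 with 94 of 104 below 0. Of 257 such windows, 11 had a median of 0.4 or higher and 1 of -0.4 or lower. The part of copy number in this was not tested.

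Among RNA classes, 877 of the 984 called genes were protein-coding, as were 11389 of all 14356 genes tested. Of 1115 long non-coding RNAs tested, 42 were higher and 11 lower. Of 192 small nucleolar RNAs tested, 3 were higher and 0 lower in the fit by limma. The background of these counts was 4.78% of all genes called higher and 2.08% lower.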
